A study of Mus musculus with 16 samples.

Results

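Thbs1 encodes thrombospondin-1, a secreted glycoprotein that modulates cell adhesion to the matrix without being a structural part of it, which is what the word matricellular means. The gene was chosen by its measured coverage, the highest of a matricellular mRNA in these libraries, so its level is a description and was not tested. Its changes between conditions come from the same libraries and describe it in the same way, beside the background of all genes. Its members are the 28 regions that lie in its gene span, of 8338 regions in the whole series, and Thbs1 is 1 of the 3202 genes to which regions were assigned. The study measured the binding of the germ cell RNA-binding protein Dazl in GC-1 spg cells, a mouse line of spermatogonial origin. All libraries come from a monoclonal line of these cells in which doxycycline induces Dazl. Every group shares that clone, its parental line and the inducible Dazl. How the 1x and 4.2x levels were set is not given here. KIN-CLIP is an iCLIP method in which a femtosecond pulsed ultraviolet laser links protein to RNA for a set time. The groups analysed are the 12 combinations of laser power (1 and 2.6 mW), Dazl level (1x and 4.2x) and crosslinking time (30, 180 and 680 s), with 1 library each and no replicates. The 4 samples of 0 s are not analysed here, so no background without light was set against the values. Whether the authors' normalization used those samples is not known here.

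Dazl belongs to the Deleted in Azoospermia family, binds short U-rich elements that hold a GUU core, mostly in 3′ untranslated regions, and is known for promoting the translation and stability of germ cell mRNAs. Thrombospondin-1 is a trimer that binds integrins, CD36, CD47 and heparan sulfate proteoglycans, activates latent transforming growth factor beta and inhibits the growth of new vessels. In crosslinking data of this kind, coverage at a site grows with the time that light and protein are both present.

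Coverage is the authors' normalized coverage, a whole-number score per position, summed over a region or gene. Listed intervals at most 10 nt apart were joined into regions. The gene span is chr2:118111876-118127133 in mm10, 15258 nt long, of a protein-coding gene (gene ID 21825). No other gene of the RefSeq table overlaps it, and the neighbours are the lncRNA gene Gm13986, 673 nt before it, and Fsip1, 3127 nt after it. The files carry no strand, and exons and untranslated regions were not annotated here. As background, mouse Thbs1 is read from the lower to the higher coordinate, so regions are numbered from 1 to 28 in the direction of transcription.

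Libraries of the series are tied to each other. At 2.6 mW and 4.2x Dazl, 13 of the 28 Thbs1 regions held exactly the same value at 30 and at 680 s, and 0 were lower at 680 s. Over all 8338 regions 45.5% were equal and 0 were lower. Such ties touched 0 to 1 Thbs1 regions in the 3 other series, against 3.79% to 9.39% of all regions. Libraries are thus not shown to be independent measurements, which the p-values below assume. Without the 30 s library of that series, the Dazl effect on Thbs1 was 1.30 ± 0.51 (SE, log2) and the laser effect 1.76 ± 0.51. The time effect was then 1.08 ± 0.64 and no longer passed (limma adjusted p = 0.124).

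Coverage on Thbs1 was concentrated at the end of the gene. The 28 regions cover 623 nt, or 4.08% of the span, and 22 of them are exactly 17 nt long, as are 81.5% of all regions. Of the others, 5 are 30 to 37 nt long and 1 is 86 nt long. Region 1 starts 74 nt after the gene start (chr2:118111950-118111966), and region 28 ends 42 nt before the gene end (chr2:118127075-118127091). The last 1500 nt hold 15 regions, or 10.0 per kb, against 1.71 per kb in the 3500 nt before them and 0.68 per kb in the remaining 10258 nt, with bounds set after seeing the map. These 3 stretches held 76.9%, 11.8% and 11.3% of the mean Thbs1 coverage. The share of the last 1500 nt lay between 74.1% and 84.0% over the 12 libraries, so the same end of the gene led in each of them. The longest stretches without a region are 3845 nt between regions 5 and 6 and 3272 nt between regions 7 and 8. Spans include introns, so the sparse stretches are not shown to be sparse in spliced mRNA.

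**Figure D1:**
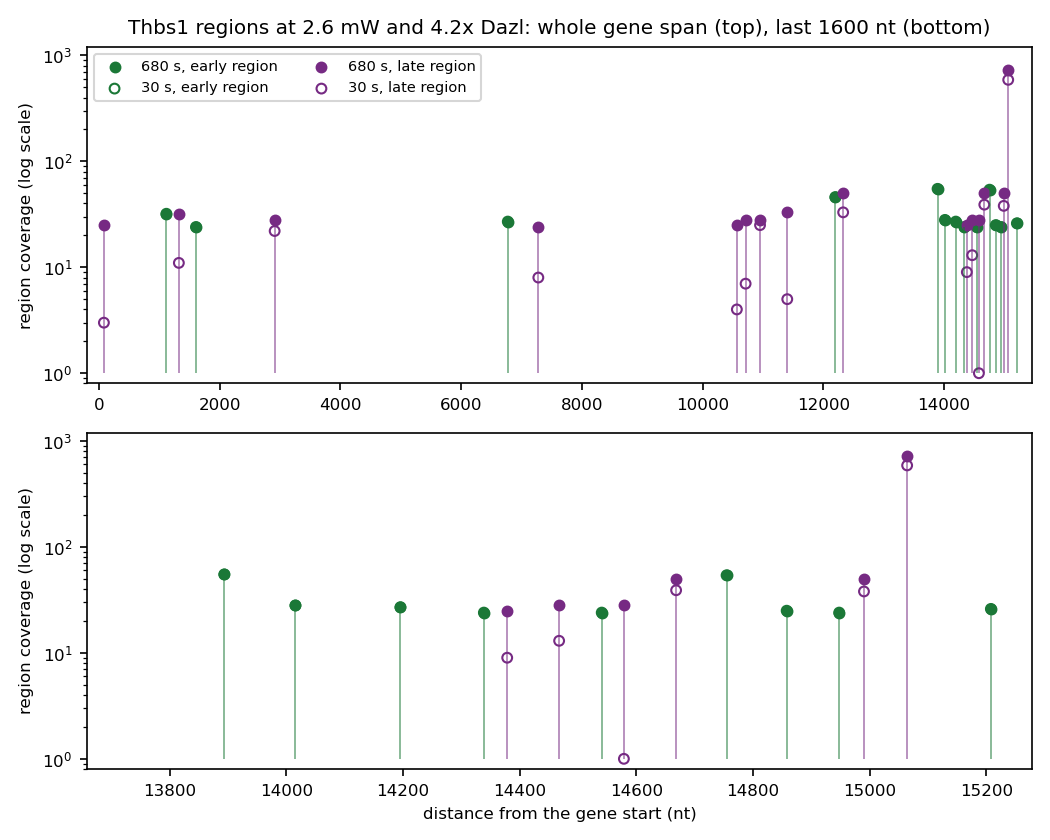
Coverage of the 28 Thbs1 regions at 2.6 mW and 4.2x Dazl (log axis) against distance from the gene start in nt, for the whole span (top) and the end of the gene (bottom). Filled points are the 680 s library and open points the 30 s library; green regions had at least 90% of their 680 s value at 30 s, and their open points lie under the filled ones. Region 27 stands at 723, and the other 27 regions lie between 24 and 55 at 680 s.

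A single region carried close to as much coverage as the other 27 combined. Region 27 (chr2:118126897-118126982), 86 nt long and 151 nt before the gene end, had a mean of 351, which ranks 2 among the 8338 regions. Per nt it had a mean of 4.08, the highest of all 8338 regions. The 22 regions of 17 nt had means of 7.0 to 23.8 and a median of 0.66 per nt, and the 5 regions of 30 to 37 nt had means of 24.1 to 30.6 and a median of 0.83 per nt. At 30, 180 and 680 s region 27 held 66, 36 and 236 in the 1 mW, 1x series. It held 257, 138 and 462 in the 1 mW, 4.2x series. In the 2.6 mW, 1x series it held 281, 268 and 565, and in the 2.6 mW, 4.2x series 588, 588 and 723. It was the highest Thbs1 region in each library. Its share of the Thbs1 total lay between 43.4% (180 s, 1 mW, 4.2x) and 55.5% (30 s, 1 mW, 1x), with a median of 46.6%, while the total moved from 75 to 1593. The shares far from the gene end moved more for their size. Over the 12 libraries the 3500 nt before the last 1500 nt held 8.53% to 13.3%, and the remaining 10258 nt held 5.88% to 13.5%. At 30 s, 1 mW and 1x Dazl regions 1 to 7 were all at 1, the lowest value, so such shares depend in part on that value.

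Region 27 holds 2 covered stretches. The first, of 65 nt (chr2:118126897-118126961), had a mean of 338, or 5.20 per nt, and the last, of 17 nt, a mean of 12.9, or 0.76 per nt. The 4 nt between them had a coverage of 0 in every library. The last stretch thus lies in the range of the separate 17-nt regions. At 680 s, 2.6 mW and 4.2x Dazl the positions of the 65-nt stretch held between 3 and 20, with a median of 11, and 0 positions were empty. At 30 s, 1 mW and 1x Dazl 31 of the 65 positions were at 0. Joined only where intervals touch, the gene had 31 regions, and joined up to 50 nt apart it had 24.

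The share of the highest region varied widely among the other genes of high coverage. The highest region held 4.1% of the mean coverage of Neat1 and 5.2% of that of Malat1, both nuclear noncoding RNAs. It held 4.5% for Col1a1, a chain of type I collagen, and 17.8% for Scd2, a fatty acid desaturase. For Pdia3, a disulfide isomerase of the endoplasmic reticulum with 9 regions, it held 79.3%. Among the 82 genes with at least 10 regions the median was 17.5%, and Thbs1 with 46.4% was second to Ccn2, another matricellular gene, with 51.1%. These shares are descriptions of where the authors' listed coverage lies. Without region 27 the mean of Thbs1 would be 405 in place of 756, and its rank among genes 10 in place of 3.

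Thbs1 held nearly the same share of each library. In the 1 mW, 1x series its total was 119, 75 and 510 at 30, 180 and 680 s, and in the 1 mW, 4.2x series it was 515, 318 and 1004. In the 2.6 mW, 1x series it was 600, 563 and 1280, and in the 2.6 mW, 4.2x series 1222, 1268 and 1593. The lowest total is that of 180 s, 1 mW, 1x, and the highest that of 680 s, 2.6 mW, 4.2x. As a share of library coverage, which ran from 11271 to 252932, Thbs1 lay between 0.626% and 0.703% in 11 libraries and at 0.798% in the 30 s, 1 mW, 1x library. Its 27 regions other than region 27 held 0.343% to 0.372% in all 12. No region was at 0 in any library, and at 180 s, 1 mW and 1x Dazl 80.5% of all regions were at 1. In such libraries the share of these 27 among the 8338 regions is set in part by their number. Whether the share departs from that was not tested. Its rank among genes was 2 in 5 libraries, 3 in 5 and 4 in 2. Thbs1 lay above Col1a1 in 11 of the 12 libraries, above Malat1 in 6 and above Neat1 in 0, so its order against Malat1 depended on the condition.

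The number of covered positions moved more than the value at each. Thbs1 had 70 covered positions with a mean of 1.07 each at 180 s, 1 mW and 1x Dazl, and 506 with a mean of 3.15 each at 680 s, 2.6 mW and 4.2x Dazl. In the weakest libraries most regions stood at the lowest value: in the 1 mW, 1x series 19 of 28 were at 1 at 30 s and 20 at 180 s, and in the 4 libraries of 680 s 0 were. Over all regions 74.0% and 80.5% were at 1 in the first and second of these libraries, and 0% to 7.99% at 680 s. Fold changes of the weak Thbs1 regions are therefore bounded by that lowest value.

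**Figure D2:**
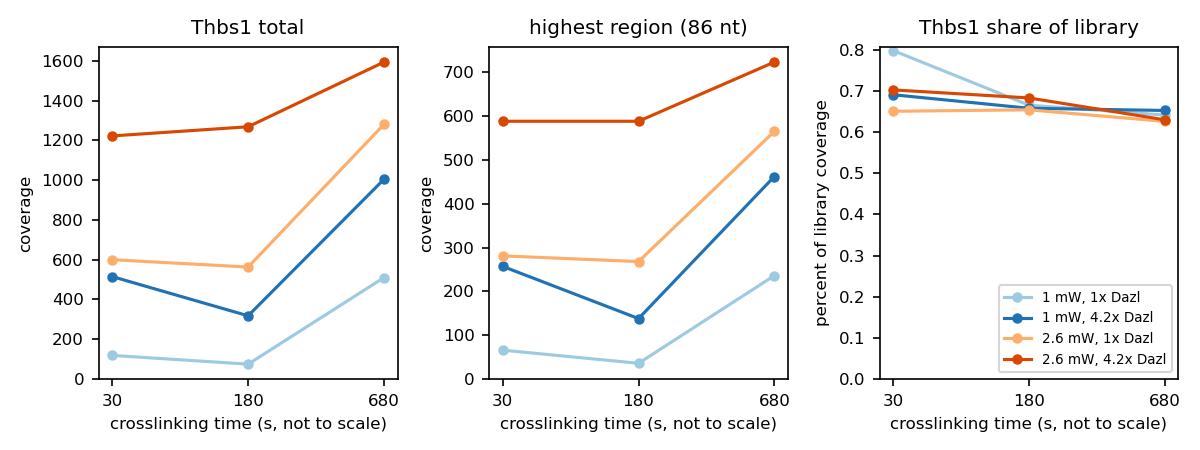
Coverage of Thbs1 (left), coverage of its 86-nt region 27 (middle) and the percent of library coverage on Thbs1 (right) against crosslinking time in s (evenly spaced, not to scale), for the 4 series of laser power and Dazl level, with 1 library per point. Totals run from 75 to 1593 and the share from 0.626% to 0.798%.

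**Figure D3:**
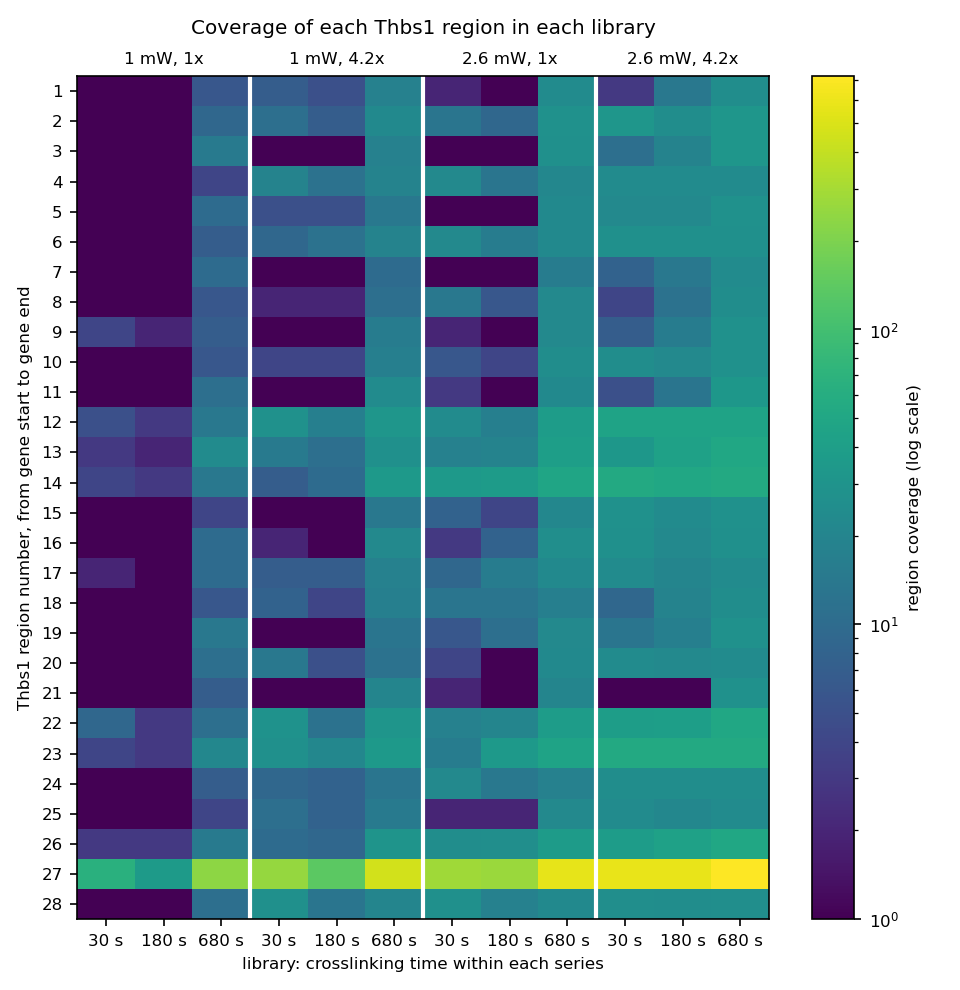
Coverage (log colour scale from 1 to 723) of each Thbs1 region, numbered from gene start to gene end, in each of the 12 libraries, ordered by series and by time. Region 27 is the brightest row in each library, and the 30 and 180 s libraries of 1 mW and 1x Dazl are mostly at 1.

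Libraries at 1x and 4.2x Dazl were compared to describe how coverage of this mRNA changed with the level of protein. Thbs1 coverage was higher at 4.2x in 6 of 6 matched pairs of libraries. At 1 mW the ratio was 4.33, 4.24 and 1.97 at 30, 180 and 680 s, and at 2.6 mW it was 2.04, 2.25 and 1.24. Region 27 had ratios of 1.28 to 3.89 over the 6 pairs and the other regions combined by 1.22 to 4.87. The mean log2 ratio of the Thbs1 total was 1.28 ± 0.70 (SD, n = 6 pairs, two-sided exact sign-flip p = 0.0312, the smallest that 64 flips allow). As a share of the library the mean log2 ratio was -0.0029 ± 0.11 (SD, n = 6 pairs, higher in 4 of them, exact sign-flip p = 0.938). The library total itself had a mean log2 ratio of 1.28 ± 0.77 (SD, higher in 6 of 6 pairs, exact sign-flip p = 0.0312). The rise of Thbs1 is thus not told apart from that of the library, whose normalization is not known here.

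In the fit over all genes, which averages over time and power, Thbs1 was higher at 4.2x by 1.27 ± 0.43 (SE, log2(value + 3); limma adjusted p = 0.00669), where 82.4% of genes were called higher and the median change was 0.88. Of the 28 regions 24 were called higher, against 74.6% of all regions, and 0 lower. The 4 not called are region 8 (0.15 ± 0.26), region 14 (0.67 ± 0.33, limma adjusted p = 0.0524), region 19 (0.26 ± 0.27) and region 21 (0.22 ± 0.19). The ratio was lower at the higher power and at the longest time, but the differences did not pass. The Dazl effect was smaller at 2.6 than at 1 mW by -0.87 ± 0.78 (limma adjusted p = 0.561) and at 680 than at 30 s by -0.91 ± 1.13 (adjusted p = 0.745). Without the 680 s, 1 mW, 1x library the first of these was -1.35 ± 0.40 and passed (limma adjusted p = 0.0188), and without each of the other 11 it did not.

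The higher laser power gives more light in the same time. Thbs1 was higher at 2.6 mW in 6 of 6 pairs, with 1x Dazl by ratios of 5.04, 7.51 and 2.51 over the 3 times and with 4.2x Dazl by 2.37, 3.99 and 1.59. Region 27 had ratios of 1.56 to 7.44, and the other regions combined 1.61 to 7.56. At 680 s all 28 regions were higher at 2.6 mW at both Dazl levels. The library total had a mean log2 ratio of 1.80 ± 0.86 (SD, higher in 6 of 6 pairs, exact sign-flip p = 0.0312). That of Thbs1 was 1.75 ± 0.82 (SD, n = 6 pairs, two-sided exact sign-flip p = 0.0312). That of the Thbs1 share of the library was -0.055 ± 0.12 (SD, higher in 2 of 6 pairs, exact sign-flip p = 0.375). The fitted change was 1.73 ± 0.43 (SE, log2; limma adjusted p = 0.000165), where 93.4% of genes were called higher and the median change was 1.22. Of the 28 regions 26 were called higher, against 91.5% of all regions, so the count is near the background. The 2 that did not pass are region 1 (0.45 ± 0.26, limma adjusted p = 0.0924) and region 21 (0.33 ± 0.19, adjusted p = 0.0904), both late regions as defined below.

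Relative to the median gene no departure of Thbs1 passed for either factor. With each library scaled to its median gene, the Dazl change was 0.35 ± 0.26 (limma adjusted p = 0.344) and the laser change 0.49 ± 0.26 (adjusted p = 0.137), with 3.06% and 10.8% of genes called higher on that scale and 15.2% and 22.9% lower. Scaled to the library total instead, they were -0.016 ± 0.050 and -0.069 ± 0.050, so the sign depends on the scaling. The library total had mean log2 ratios of 1.28 for Dazl and 1.80 for laser power. The median gene changed by 0.88 and 1.22 on log2(value + 3). These measures are not alike, since the added 3 lowers the change of genes with small values. Single regions departed from the median region, and those named here were picked after their values were seen. For Dazl level 1 of 28 was called higher and 2 lower, against 2.93% and 15.7% of all regions. Region 25 rose more than the median by 0.69 ± 0.23 (limma adjusted p = 0.0319), while region 8 departed by -0.73 ± 0.25 (adjusted p = 0.0381) and region 19 by -0.62 ± 0.22 (adjusted p = 0.0459). For laser power 1 was called higher and 2 lower, against 4.01% and 21.5%. Region 14 rose more than the median by 0.76 ± 0.25 (adjusted p = 0.0197), while region 1 departed by -0.79 ± 0.26 (adjusted p = 0.0219) and region 21 by -0.91 ± 0.27 (adjusted p = 0.0104).

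The comparison of times asks how coverage accumulates. Thbs1 was higher at 680 than at 30 s in 4 of 4 series, with ratios of 4.29 (1 mW, 1x), 1.95 (1 mW, 4.2x), 2.13 (2.6 mW, 1x) and 1.30 (2.6 mW, 4.2x). It was lower at 180 than at 30 s in 3 series, with ratios of 0.63, 0.62 and 0.94, and 1.04 in the 2.6 mW, 4.2x series. Library totals had ratios of 0.76, 0.65, 0.93 and 1.07 in the same order, so the dip was not limited to Thbs1. From 180 to 680 s all 28 regions rose in 3 series, and 24 rose and 4 were equal at 2.6 mW and 4.2x Dazl. The fitted change from 30 to 680 s was 1.13 ± 0.53 (SE, log2; limma adjusted p = 0.0476), with 73.0% of genes called higher and a median of 1.03. That call was lost on leaving out any of 9 of the 12 libraries, with adjusted p between 0.0532 and 0.155. It was kept without the 180 s, 1 mW, 1x library, the 30 s, 1 mW, 4.2x library or the 680 s, 2.6 mW, 4.2x library. It was also lost with a pseudocount of 10 (adjusted p = 0.0575). Of the regions 20 of 28 were called higher, against 61.5% of all regions, and this count was 14 to 24 on leaving out a library. The 8 not called include region 27 (0.98 ± 0.56, limma adjusted p = 0.112) and region 4 (0.19 ± 0.37). Between 30 and 180 s limma called 0 genes, with 5 at an unadjusted p under 0.05. It also called 0 of all regions there, with 9 at an unadjusted p under 0.05, of which 0 lie in Thbs1.

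How much of the 680 s coverage was listed at 30 s differed between series. For the Thbs1 total it was 23.3% (1 mW, 1x), 51.3% (1 mW, 4.2x), 46.9% (2.6 mW, 1x) and 76.7% (2.6 mW, 4.2x). Library totals had 18.7%, 48.5%, 45.1% and 68.8%, below Thbs1 in each series. Region 27 had 28%, 55.6%, 49.7% and 81.3%, and the other 27 regions combined 19.3%, 47.6%, 44.6% and 72.9%. Region 27 thus had the larger share at 30 s in 4 of 4 series, a difference that was not tested. Relative to the median gene the time change of Thbs1 was 0.02 ± 0.31 (limma adjusted p = 0.975), with 10.2% of genes called higher and 19.4% lower. Relative to the library total it was -0.16 ± 0.06 (adjusted p = 0.118).

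Early and late regions were both found near the start and near the end of the gene. A region was called early where its 30 s value was at least 90% of its 680 s value at 2.6 mW and 4.2x Dazl, and late where it had not reached 90% at 180 s either. Of the 28 regions 13 were early (46.4%), against 47.6% of all regions, 15 were late, against 51.6%, and 0 reached 90% only at 180 s, against 0.780%. All 13 early regions are the tied ones, at 100.0%, and the nearest below the limit is region 10 with 89.3%. Of 27 neighbouring pairs 15 differed in class and the others shared it, and of the 12 pairs at most 100 nt apart 6 differed. Regions 7 to 11 were all late and regions 14 to 17 all early. Of the 15 regions in the last 1500 nt 9 were early, and of the 13 before them 4 were. With a limit of 80%, 15 regions were early and 10 late. Region 27, with 81.3% at 30 s, was late at the limit of 90% and early at that of 80%. The 13 regions early at 90% held 416 of the Thbs1 total of 1593 at 680 s, 2.6 mW and 4.2x Dazl.

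Regions 20 and 21 are close neighbours of different class, chosen after their values were seen. They are 21 nt apart (chr2:118126408-118126424 and chr2:118126446-118126462). In the 2.6 mW, 4.2x series region 20 held 24, 22 and 24 over the 3 times, and region 21 held 1, 1 and 28. In the 1 mW, 4.2x series region 20 held 14, 5 and 12 and region 21 held 1, 1 and 20. In the 2.6 mW, 1x series the difference was small, at 4, 1 and 23 against 2, 1 and 20. Both were at 1 until 180 s in the 1 mW, 1x series and then at 11 and 7. Region 21 was thus at 1 or 2 before 680 s in each series.

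The class was less marked outside the series that defined it. In the 1 mW, 4.2x series the early regions had a median of 69.2% of their 680 s value at 30 s and the late ones 23.5%. Over all regions with at least 10 at 680 s in the defining series these were 65.2% and 14.3%. In the 2.6 mW, 1x series they were 46.4% and 24.0% in Thbs1, against 60% and 19.2% over all regions. In the 1 mW, 1x series, where most values at 30 s are at 1, they were 19.0% and 16.7%, against 16.7% and 14.3% over all regions. By the same limit 4 regions were early at 1 mW and 4.2x, 4 at 2.6 mW and 1x, and 0 at 1 mW and 1x, where 16.2%, 14.2% and 10.4% of all regions were. All others were late there (24, 24 and 28), against 83.7%, 83.2% and 89.6% of all regions, and 0 reached the limit only at 180 s, against 0.156%, 2.55% and 0.00%. Regions 4 and 28 were early in 3 of 4 series, and 14 regions were early in none. Across the 28 regions the 30 s shares of the 1 mW, 4.2x and 2.6 mW, 4.2x series had a Pearson r of 0.56 and a Spearman rho of 0.59. Those of the 2.6 mW, 1x and 2.6 mW, 4.2x series had 0.43 and 0.44. Those of the 1 mW, 1x and 2.6 mW, 4.2x series had only 0.065 and 0.19. These describe regions of a single gene that share libraries and tied values.

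**Figure D4:**
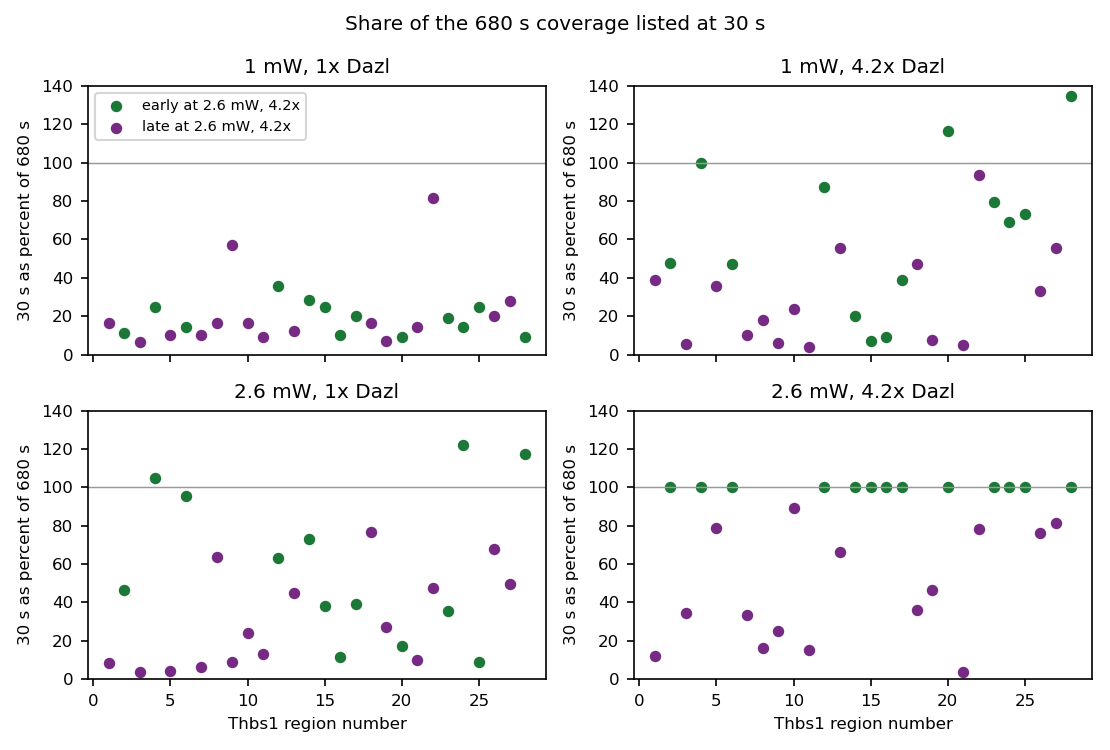
Coverage at 30 s as a percent of that at 680 s for each Thbs1 region, numbered from gene start to gene end, in the 4 series; colours give the class at 2.6 mW and 4.2x Dazl, and the line marks 100%. The 13 early regions lie at 100% in the defining series by tie and spread from 7.14% to 135% at 1 mW and 4.2x Dazl.

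Regions 21, 11, 3, 4 and 24 departed from the median region in the time course. Regions 21 and 11 were named for their low 30 s shares and regions 3, 4 and 24 after their values were seen, so for each of them the values describe the choice. Region 21 rose more than the median by 1.16 ± 0.33 (SE, log2; limma adjusted p = 0.00700), region 11 (chr2:118123271-118123287) by 1.12 ± 0.31 (adjusted p = 0.00651) and region 3 (chr2:118113192-118113208) by 1.10 ± 0.32 (adjusted p = 0.00774). Region 11 held 5, 13 and 33 at 2.6 mW and 4.2x Dazl, and 1, 1 and 24 at 1 mW and 4.2x. Region 3 held 11, 19 and 32, and 1, 1 and 18. Both were thus at the lowest value until 180 s at the lower power. Region 4 (chr2:118113475-118113491) and region 24 (chr2:118126725-118126741) rose less than the median, by -0.91 ± 0.31 (adjusted p = 0.0233) and -0.72 ± 0.28 (adjusted p = 0.0431). Region 4 held 24, 24 and 24 at 2.6 mW and 4.2x Dazl, 22, 13 and 21 at 2.6 mW and 1x, and 19, 12 and 19 at 1 mW and 4.2x. It was the only Thbs1 region with equal values at 30 and 680 s in both 4.2x series. It lies 266 nt after region 3, whose course was the opposite.

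These calls stand beside a background of 12.9% of all regions called upward and 19.4% downward on this scale, against 3 and 2 of 28 here. Regions 3, 11 and 21 were called on leaving out each of the 12 libraries, region 4 in 8 and region 24 in 7. Tested only among regions with a mean of at least 10, limma called 0 of the 22 Thbs1 regions kept, with 5 at an unadjusted p under 0.05, and 13 of 5240 regions in all. Regions 11 and 21 do not reach that mean. The lowest 30 s shares in the defining series were those of region 21 (3.57%), region 1 (12.0%) and region 11 (15.2%). Region 1, the first on the gene, held 3, 14 and 25 there, 7, 5 and 18 at 1 mW and 4.2x Dazl, and 2, 1 and 24 at 2.6 mW and 1x. Its departure was 0.63 ± 0.32 (adjusted p = 0.124).

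After region 27 the regions with the highest means were region 23 (chr2:118126612-118126648, 37 nt) with 30.6 and region 14 (chr2:118125753-118125785, 33 nt) with 29.5. Region 23 held 54, 54 and 54 at 2.6 mW and 4.2x Dazl, 16, 34 and 45 at 2.6 mW and 1x, and 27, 21 and 34 at 1 mW and 4.2x. Region 14 held 55, 51 and 55, 35, 37 and 48, and 7, 10 and 35 in the same order. Both had reached their 680 s value at 30 s only with high light and high Dazl. Region 28, the last on the gene, held 26, 25 and 26 at 2.6 mW and 4.2x, 27, 18 and 23 at 2.6 mW and 1x, and 27, 13 and 20 at 1 mW and 4.2x, with 1, 1 and 11 at 1 mW and 1x. It was higher at 30 than at 680 s in 2 series. Of the regions without values here, the lowest mean was 7.33 (region 7) and the highest 26.3 (region 12).

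Thbs1 stood apart in level from the other matricellular and matrix glycoprotein genes, which is how it was chosen. Of a list of 26, 15 had a region. The next in mean coverage were Sparc, a collagen-binding glycoprotein, with 360 in 14 regions, Fn1, fibronectin, with 266 in 18, and the CCN family gene Ccn2 with 223 in 10. Spp1, osteopontin, had 68.2 and Ccn1 60.8. The related Thbs2 had 8.17 in 1 region and Comp, thrombospondin-5, 7.5 in 2, while Thbs3 and Thbs4 had no region. At 680 s, 2.6 mW and 4.2x Dazl this gives 1593 for Thbs1 against 17 for Thbs2 and 24 for Comp. Coverage depends on RNA abundance as well as on binding, and abundance was not measured here. Of the 15 listed genes, Thbs1 among them, 14 were called higher at 4.2x, 15 at 2.6 mW and 14 at 680 s, with median changes of 0.82, 1.14 and 1.13, against 0.88, 1.22 and 1.03 over all genes. Of all genes 82.4%, 93.4% and 73.0% were called. Comp was not called for Dazl (0.38 ± 0.21, limma adjusted p = 0.0811), nor Tnn for time (0.08 ± 0.10, adjusted p = 0.433).

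Genes of receptors and partners of thrombospondin-1 were listed too. Of 26, 17 had a region, and 15, 15 and 12 were called higher for Dazl level, laser power and time, with median changes of 0.91, 1.58 and 1.31. These counts lie near the 82.4%, 93.4% and 73.0% of all genes called, whose medians were 0.88, 1.22 and 1.03. The highest were Sdc4, a heparan sulfate proteoglycan, with 474, the integrin subunits Itgb1 and Itgav with 399 and 260, and Calr, calreticulin, with 112. Atf6, a transcription factor of the unfolded protein response that thrombospondins bind, had 58.6, Itga3 had 47.6 and Cd47, the integrin-associated protein, 36.8. Cd47 was called for Dazl (0.68 ± 0.31, limma adjusted p = 0.0398) and laser power (1.76 ± 0.31), and its time change was 0.66 ± 0.38 (adjusted p = 0.110). Cd36 and Tgfb1 had no region. How sites were chosen for the deposited lists is not known here, and a missing gene may still be bound.

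The genes whose course over the 12 libraries was most like that of Thbs1 were found by Pearson correlation of log2(value + 3), scaled to the median gene, among 214 other genes with a mean of at least 100. They were Lamp1, a lysosomal membrane glycoprotein (r = 0.991), Srsf6, a splicing factor (0.991), Ryk, a Wnt receptor (0.988), Serpinh1, a collagen chaperone (0.986) and Pdia3 (0.985). The median over the 214 genes was 0.924, so high values are common on this scale. With libraries scaled to their totals the same 5 genes had 0.12, 0.55, 0.83, -0.37 and 0.63, so the order of likeness depends on the scale, and Ryk was highest of them on the second.

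The markers of the labelled cell type were thinly listed. Of 18 germ cell genes Mov10l1, Rhox13 and Sall4 had a region each, summing to 3 to 10 per library, and Ddx4, Kit, Zbtb16 and Dazl itself had none. Of 8 markers of peritubular myoid cells and fibroblasts 5 had a region, Col1a1, Col1a2, Pdgfra, Vim and Acta2, summing to 71 to 1977. Most of that sum was Col1a1, with 53 to 1560. Vim and Acta2 had 1 region each, with means of 19.2 and 15.7, and Myh11, Tagln and Col3a1 had none. Sertoli markers had 2 of 8 (Wt1 and Dhh), endothelial markers 1 of 4 (Kdr), and Leydig and macrophage markers 0 of 6 and 0 of 4. The part of cell identity in the Thbs1 level was not tested.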

How the data were processed

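The deposited files have no header; by their names they hold the authors' normalized coverage, a score per interval in whole numbers from 1 to 24. The submitters' processing notes name FastQC, Bowtie2 and mm10. The normalization and the choice of sites were not given in the sources used here. Depth in reads is unknown, so no counting interval is given. Intervals of the 12 libraries at most 10 nt apart were joined into 8338 regions, whose value is the sum of width times score. A region was assigned by its midpoint to a gene span of the RefSeq table of GRCm38.p6 (mm10) where it fell in a single gene, or in several of which 1 codes for protein (7830 regions, 3202 genes). Genes and regions were fitted with limma 3.58.1 in R 4.3.3 on log2(value + 3), with additive terms for time, power and Dazl, eBayes (trend, robust), 7 residual degrees of freedom and Benjamini-Hochberg adjustment over all features. The fit was tested on simulated data with independent noise in each library, which cannot probe the ties between libraries described above. The differences in Dazl effect between powers and times came from fits with an added interaction term, with 6 and 5 residual degrees of freedom. With 1 library per condition, SEs measure the spread around the fitted model, not replicate spread. They are also drawn toward a trend fitted over all features, so a Thbs1 SE is not its own spread alone. With plain eBayes the SE of the Dazl and laser effects on Thbs1 was 0.29 in place of 0.43. That of the difference in Dazl effect between powers was 0.54 in place of 0.78. The median prior degrees of freedom over genes came to 107 in the unscaled additive fit and 13.2 in that scaled to the median gene. They came to 778 and 273 in the fits with an interaction term. Matched ratios were tested with exact sign flips. Thbs1, its regions and the gene lists were chosen with earlier results of these data known. Genes were named by likeness to Thbs1 (5 genes), by list and mean coverage (up to 6 of each list), and regions as the 3 highest, the extremes of the 30 s share, and the first and last. The highest 30 s shares were tied at 100% in 13 regions, so none was picked by that part. Other regions, Thbs2, Comp, Tnn and Cd47 were named after their values were seen.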

Additional observations from a re-analysis of the deposited data

How the results depend on the processing

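The Dazl and laser effects on Thbs1 kept their direction and call under the pseudocounts of 1 and 10, plain eBayes, the filter on a mean of at least 10, and the total without region 27 (an alternative chosen after seeing the data), at 1.24 to 1.30 and 1.69 to 1.77. On leaving out each library they were 1.06 to 1.51 and 1.52 to 1.97, also called. The time effect was 1.11 (adjusted p = 0.0575) with a pseudocount of 10 and 0.90 to 1.49 on leaving out each library, and was 1.25 (limma adjusted p = 0.0222) without region 27. The departures from the median gene were -0.016, -0.069 and -0.16 for Dazl, laser and time with scaling by the library total, and the time departure was -0.18 with a pseudocount of 1. With pseudocounts of 1 and 10 the Dazl departure was 0.15 and 0.64 and the laser departure 0.24 and 0.87 (limma adjusted p = 0.0535 at 10), and the time departure at 10 was 0.35. On leaving out each library these departures were 0.19 to 0.45, 0.33 to 0.59 and -0.10 to 0.18. None of these passed, and only the time departure changed sign, in 4 of 12 cases (-0.052, -0.10, -0.030 and -0.051). The difference in Dazl effect between powers was -1.35 to -0.45 and between times -1.55 to -0.27 on leaving out each library. As a share of the library the sign-flip means were -0.0029 and -0.055. Of the region counts, those called for Dazl, laser and time were 17 to 24, 26 to 27 and 14 to 24 on leaving out each library, and regions departing in time were 3 to 9, 3 when joined only where intervals touch and 0 with the filter on a mean of at least 10. Without the 30 s libraries the departing counts were 9 (1 mW, 1x), 3 (1 mW, 4.2x), 3 (2.6 mW, 1x) and 8 (2.6 mW, 4.2x), and 3 without the 680 s, 2.6 mW, 4.2x library. Early regions numbered 0, 4 and 4 and late regions 28, 24 and 24 in the 1 mW, 1x, the 1 mW, 4.2x and the 2.6 mW, 1x series. The causes were not tested. No paired analysis was possible because each condition has 1 library, if pairing means a block of replicate numbers; the sign-flip tests pair libraries by matched condition instead. Depth in reads is unknown, and values at 1 bound the folds of most regions against the 30 and 180 s libraries of 1 mW and 1x Dazl.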
